A study of Mus musculus with 8 samples.

Results

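The genes described here are the metallothioneins Mt1, Mt2 and Mt3 and 3 genes of zinc handling, Mtf1, Slc30a1 and Slc39a14, in cultured mouse fat cells left with asbestos fibres. They were taken by gene symbol from the probes of the array, control spots excluded, and all 6 were found, on 9 of the 55681 probes (Mtf1 on 3, Mt1 on 2 and the others on 1 each). Of these 9 probes, 8 read well above background on all 8 arrays, and 1 Mtf1 probe did so on 0 arrays. All 6 genes therefore stood among the 23054 genes tested.

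The cells were 3T3-L1, a mouse preadipocyte line differentiated to mature adipocytes in culture. The control group received physiological saline. The other 3 groups received fibres at the labelled concentration of 10 mg/cm2, either chrysotile (serpentine asbestos) or crocidolite or amosite (both amphibole asbestos). RNA was taken after 72 h, and each group had 2 arrays, hybridised with 1 Cy3-labelled sample apiece. The line is a single established one, all 4 groups had gone through the same differentiation, and no untreated preadipocytes or particle control without asbestos entered the comparisons.

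Metallothioneins are small, cysteine-rich proteins that bind zinc and copper ions and, after exposure, cadmium. Their genes are switched on by the zinc-sensing transcription factor MTF-1, the product of Mtf1, which binds short metal response elements in their promoters, and also by glucocorticoids and by interleukin-6 family cytokines. Slc30a1 encodes ZnT1, a zinc exporter of the plasma membrane and another MTF-1 target. Slc39a14 encodes ZIP14, a transporter that carries zinc and non-transferrin-bound iron into cells and is known in liver as an interleukin-6 induced gene. Mt3 is best known from brain. Metallothionein genes are also known to be expressed in fat cells.

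Levels are log2 of the processed intensity minus the 75th percentile of the same array, so a level of 0 lies at that percentile and a difference of 1 is a doubling. A level belongs to its probe, and levels of different probes were not compared, beyond taking the brightest probe of a gene to stand for it. The 75th percentile ran from 340.1 to 453.4 intensity units and 31319 to 35024 probes per array were well above background. All 10 adipocyte markers were well above background on all 8 arrays, with median differences from saline of -0.13 with chrysotile, -0.13 with crocidolite and -0.07 with amosite. All 8 preadipocyte and fibroblast markers were so too, with a summed linear level of 853 to 868 with saline, 779 to 894 with chrysotile, 778 to 876 with crocidolite and 749 to 863 with amosite, so the markers show both kinds of transcript and not the share of cells that had differentiated. Of 8 macrophage markers, 5 passed the filter on dim probes and Adgre1, Mrc1 and Lyz2 did not. Of these 5, 4 were well above background on all 8 arrays. The summed linear level of the 5 was 66.3 to 73.0 with saline, 64.5 to 73.9 with chrysotile, 60.9 to 68.1 with crocidolite and 61.9 to 65.9 with amosite.

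The promoter windows of the 3 genes whose upstream 250 bases hold the core of a metal response element are shown, because MTF-1 is known to bind that element. They come from RefSeq (GRCm38.p6), run 5′ to 3′ on the gene's own strand, which is the plus strand for all 3, and end at the base before the annotated transcript start. Capitals mark the cores, searched on both strands as TGCACNC and TGCGCNC, spellings that cannot overlap in the same place on 1 strand. The windows are chr8:94172368-94172617 for Mt2, chr8:94178839-94179088 for Mt1 and chr1:191906531-191906780 for Slc30a1.
Mt2: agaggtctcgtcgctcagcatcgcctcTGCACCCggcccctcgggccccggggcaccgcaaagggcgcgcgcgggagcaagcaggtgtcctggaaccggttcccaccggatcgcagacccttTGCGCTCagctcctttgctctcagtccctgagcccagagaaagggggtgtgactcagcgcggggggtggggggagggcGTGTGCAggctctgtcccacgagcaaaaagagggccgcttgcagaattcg
Mt1: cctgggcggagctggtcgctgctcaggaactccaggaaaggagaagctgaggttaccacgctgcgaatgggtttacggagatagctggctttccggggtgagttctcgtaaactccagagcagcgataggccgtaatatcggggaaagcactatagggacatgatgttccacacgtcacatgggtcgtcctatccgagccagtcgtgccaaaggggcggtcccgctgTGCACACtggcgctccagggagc
Slc30a1: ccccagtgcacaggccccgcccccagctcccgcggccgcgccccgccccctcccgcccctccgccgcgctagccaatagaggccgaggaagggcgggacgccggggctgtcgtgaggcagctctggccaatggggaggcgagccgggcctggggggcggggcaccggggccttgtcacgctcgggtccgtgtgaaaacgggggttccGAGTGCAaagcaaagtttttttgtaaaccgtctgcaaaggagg

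The Mt2 window held 3 cores, at -223 to -217, -128 to -122 and -50 to -44 from the annotated start, and 1.26% of the 32851 windows of the table held 3 or more. The Mt1 window held 1, at -23 to -17, and the Slc30a1 window 1, at -43 to -37, where 21.4% of windows held at least 1. The windows of Mt3 and Mtf1 held 0, which says only that these letters are not in those 250 bases. The count moves with the annotated start, which need not be the start used in these cells. With the 50 bases after it added, Mt2 held 4 cores (0.517% of windows held as many), Mt1 held 3 (1.97%), Slc30a1 held 2 (7.11%), Mt3 held 1 (25.7%) and Mtf1 still held 0. Slc39a14 was not searched. These matches are a description of the letters, and no binding was measured.

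Each probe is 60 bases long and reads a single stretch of a transcript. The 3 probes on which the metallothionein results turn begin as follows, with the first 30 bases of each shown to make plain that they read different sequence.
Mt2: agaagcctagccttttttgtacaaccctga
Mt1, brighter probe: cctgtttactaaacccccgttttctaccga
Mt1, second probe: aactggctctgagaaatgtcctttgcttcc

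On the files' own build, mm9, the Mt2 probe lies at chr8:96697371-96697430, the brighter Mt1 probe at chr8:96704165-96704224, the second Mt1 probe at chr8:96703844-96703903 and the Mt3 probe at chr8:96677927-96677986. The ends of the Mt1 probes are 321 bases apart. Over their full length, no pair of metallothionein probes shared a run longer than 7 bases. The Slc30a1 probe lies at chr1:193736760-193736819, the Slc39a14 probe at chr14:70703394-70703453 and the Mtf1 probe used for the gene at chr4:124526365-124526424. Exon and UTR annotation on mm9 was not used here.

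The comparison of each fibre with saline asks whether the fibre altered the level of a gene. Mt2 was measured at 1.86-fold and 1.92-fold its saline level with chrysotile and crocidolite, and the importer gene Slc39a14 at 1.39-fold and 1.52-fold, while with amosite they were at 1.03-fold and 1.06-fold. Mt3, Slc30a1 and Mtf1 (brightest probe) lay within 0.12 of saline on the log2 scale with every fibre. In none of the 7 comparisons made (3 fibres against saline, 3 pairs of fibres, and the mean of the 3 fibres against saline) did any of the 6 genes pass an adjusted p of 0.05 in limma's moderated test with Benjamini-Hochberg adjustment over all 23054 genes. The background was the same, with 0% of all genes called in each of the 7 comparisons. At an unadjusted p under 0.05, 1 of the 6 genes passed with chrysotile (5.49% of all genes did), 2 with crocidolite (7.27%) and 0 with amosite (2.66%). The smallest adjusted p among the 6 genes was 0.897 with chrysotile, 0.579 with crocidolite and 1.0 with amosite, and among all genes it was 0.121, 0.147 and 0.147. Same-numbered arrays deviated together, and with the replicate number as a block the smallest adjusted p among the 6 became 0.447, 0.307 and 1.0, with 0% of all genes called again. The sizes below are therefore measured differences, given with their errors, that did not pass the test.

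Mt2, one of the pair of widely expressed metallothioneins, had the widest spread between groups. Its level was 6.18 and 6.10 on the saline arrays, 6.80 and 7.26 with chrysotile, 7.36 and 6.81 with crocidolite and 6.39 and 5.97 with amosite. All 4 chrysotile and crocidolite arrays lay above all 4 saline and amosite arrays, an order that 3 of the 6 genes (Mt2, Slc39a14 and Mtf1 on its brightest probe) and 4.86% of all genes showed. This grouping was not among the comparisons tested, and the 6 genes were chosen with earlier results of these data known. The count therefore describes these genes and is not a test of them. The amosite arrays lay on either side of the saline arrays.

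The group means of Mt2 were 7.08 ± 0.40 with crocidolite, 7.03 ± 0.33 with chrysotile, 6.18 ± 0.30 with amosite and 6.14 ± 0.06 with saline (SD, n = 2 each). In that order the first and second overlapped, as did the last and the one before it, and only the step from chrysotile to amosite was free of overlap. Mt2 stood 0.89 ± 0.26 (SE) above saline on the log2 scale with chrysotile, a 1.86-fold difference with a 95% interval of 1.20 to 2.87 and a limma adjusted p of 0.897. With crocidolite it stood 0.94 ± 0.26 above saline, 1.92-fold with an interval of 1.24 to 2.98 and an adjusted p of 0.579. With amosite the difference was 0.04 ± 0.26, or 1.03-fold, with an interval of 0.665 to 1.59. The intervals are for Mt2 alone and are not adjusted for the number of genes.

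Between fibres, Mt2 was 1.81-fold higher with chrysotile than with amosite (limma adjusted p = 1.0) and 1.87-fold higher with crocidolite than with amosite (adjusted p = 0.873). Chrysotile and crocidolite differed by -0.05 ± 0.26 on the log2 scale, with an interval of 0.624-fold to 1.49-fold, which holds no difference and also a 1.5-fold lower level. Leaving out 1 array at a time moved the chrysotile difference between 0.66 (without chrysotile replicate 2) and 1.12 (without chrysotile replicate 1), and the crocidolite difference between 0.67 (without crocidolite replicate 1) and 1.22 (without crocidolite replicate 2). In linear terms the Mt2 probe read 23302 to 74715 intensity units.

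Mt1, the neighbour of Mt2 with the same function, was read by 2 probes that gave different sizes. The brighter probe, used for the gene, had levels of 9.01 and 8.83 with saline, 9.02 and 9.09 with chrysotile, 9.09 and 8.96 with crocidolite and 8.77 and 8.74 with amosite. Both chrysotile arrays lay above both saline arrays, the crocidolite arrays overlapped saline, and both amosite arrays lay below every other array. The whole span over the 8 arrays was 0.36 on the log2 scale.

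The brighter probe's means were 9.06 ± 0.05 with chrysotile, 9.03 ± 0.10 with crocidolite, 8.92 ± 0.13 with saline and 8.75 ± 0.02 with amosite (SD, n = 2 each). In that order, chrysotile and crocidolite overlapped, crocidolite and saline overlapped, and saline and amosite did not. Its difference from saline was 0.14 ± 0.12 (SE) with chrysotile, 0.11 ± 0.12 with crocidolite and -0.17 ± 0.12 with amosite, with limma adjusted p of 0.934, 0.874 and 1.0. Chrysotile exceeded amosite by 0.30 ± 0.12, 1.23-fold with an interval of 1.01 to 1.51, at an adjusted p of 1.0. Crocidolite exceeded amosite by 0.27 ± 0.12. The probe read 154727 to 247902 intensity units, where the brightest signal of an array was 405528 to 460233 and the scanner flagged 0 spots as saturated.

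The second Mt1 probe read 388 to 899 intensity units. Its levels were 0.00 and 0.37 with saline, 0.39 and 0.75 with chrysotile, 0.99 and 0.72 with crocidolite and 0.18 and 0.37 with amosite. All 4 chrysotile and crocidolite arrays again lay above the 4 saline and amosite arrays, by a margin of only hundredths for the lowest chrysotile array. In a limma fit of 33044 single probes its difference from saline was 0.39 ± 0.20 with chrysotile (1.31-fold, adjusted p = 0.955), 0.67 ± 0.20 with crocidolite (1.59-fold, interval 1.13 to 2.23, adjusted p = 0.656) and 0.09 ± 0.20 with amosite (1.06-fold). Both probes of Mt1 thus had positive differences with chrysotile and crocidolite, and they had opposite signs with amosite. The array annotation assigns the brighter probe to a RefSeq transcript and the second to a transcript record from outside RefSeq. Whether both read the same RNA, and which of them reports the Mt1 transcript better, was not tested.

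Mt3, the metallothionein known from brain, was measured at levels of -0.15 and 0.11 with saline, -0.11 and -0.03 with chrysotile, -0.10 and 0.19 with crocidolite and 0.06 and 0.15 with amosite. The saline arrays spanned both chrysotile arrays and overlapped those of the other fibres, and no fibre stood apart from saline. The differences were -0.05, 0.06 and 0.12 (SE 0.15 each) for chrysotile, crocidolite and amosite, so that the intervals of all 3 hold both directions. Both chrysotile arrays lay below both amosite arrays, by 0.17 ± 0.15 in the means. Of 4 neuron and astrocyte markers, Gfap and Syp were well above background on all 8 arrays, and Rbfox3 and Slc17a7 did not pass the filter.

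**Figure D1:**
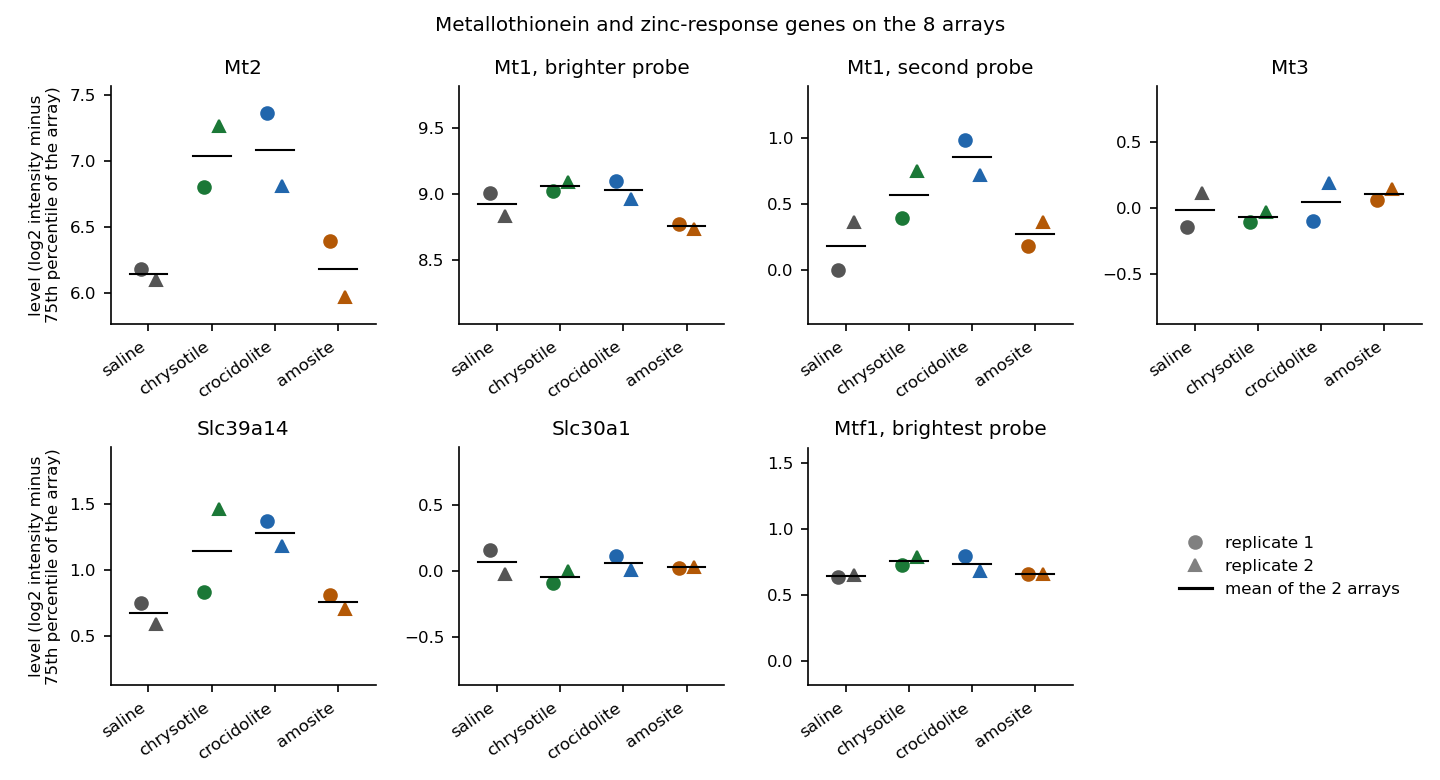
Levels of the 6 genes on each of the 8 arrays, with both Mt1 probes, on axes that span the same log2 range (log2 intensity minus the array's 75th percentile, horizontal lines are means of 2 arrays). Mt2 runs from 5.97 to 7.36 and Slc39a14 from 0.60 to 1.46, and both have all chrysotile and crocidolite arrays above all saline and amosite arrays. The brightest Mtf1 probe has the same order within a span of 0.16, and Mt3 and Slc30a1, which span 0.34 and 0.25, do not.

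Slc39a14, the zinc and iron importer ZIP14, resembled Mt2 in the order of its groups. Its level was 0.75 and 0.60 with saline, 0.83 and 1.46 with chrysotile, 1.37 and 1.18 with crocidolite and 0.81 and 0.70 with amosite. The 4 chrysotile and crocidolite arrays lay above all others, though chrysotile replicate 1 exceeded the highest amosite array only in the second decimal. The means were 1.28 ± 0.14 with crocidolite, 1.15 ± 0.44 with chrysotile, 0.76 ± 0.08 with amosite and 0.67 ± 0.11 with saline (SD, n = 2 each). Crocidolite and chrysotile overlapped and so did amosite and saline.

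Against saline, Slc39a14 stood 0.60 ± 0.22 (SE) higher with crocidolite, 1.52-fold with an interval of 1.05 to 2.19 and a limma adjusted p of 0.667. With chrysotile it stood 0.47 ± 0.22 higher, 1.39-fold with an interval of 0.961 to 2.00 and an adjusted p of 0.897. The chrysotile value rested on 1 array, being 0.16 without chrysotile replicate 2 and 0.79 without chrysotile replicate 1. With amosite the difference was 0.08 ± 0.22, or 1.06-fold. Crocidolite exceeded amosite by 0.52 ± 0.22 and chrysotile exceeded amosite by 0.39 ± 0.22, and chrysotile lay 0.13 ± 0.22 below crocidolite.

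Slc30a1, the exporter ZnT1, showed no such order. Its level was 0.16 and -0.02 with saline, -0.09 and 0.00 with chrysotile, 0.11 and 0.01 with crocidolite and 0.02 and 0.03 with amosite. The saline arrays spanned all crocidolite and amosite arrays and overlapped chrysotile. The differences from saline were -0.12, -0.01 and -0.04 (SE 0.12 each) for chrysotile, crocidolite and amosite, and the interval for crocidolite ran from 0.813-fold to 1.21-fold. A 1.5-fold difference in either direction thus lay outside it, as it did for the other fibres, whose intervals ran from 0.756-fold to 1.13-fold with chrysotile and from 0.795-fold to 1.19-fold with amosite. Mt2, known like Slc30a1 as an MTF-1 target, had intervals above 1-fold with chrysotile and crocidolite. The difference between the responses of Slc30a1 and Mt2 was not tested.

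Mtf1, the zinc sensor itself, was read by 3 probes. The brightest gave 0.64 and 0.65 with saline, 0.73 and 0.78 with chrysotile, 0.79 and 0.68 with crocidolite and 0.66 and 0.66 with amosite. Every fibre array lay above both saline arrays, in a range of only 0.16 on the log2 scale, and an order with all fibre arrays above saline was found for 2.02% of all genes. The differences were 0.11, 0.09 and 0.02 (SE 0.11 each) for chrysotile, crocidolite and amosite. The next Mtf1 probe gave -0.21, -0.20 and -0.46 (SE 0.29 each), the opposite sign for each fibre, and the third was not well above background on any array. Mtf1 thus has no direction that its probes share.

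**Figure D2:**
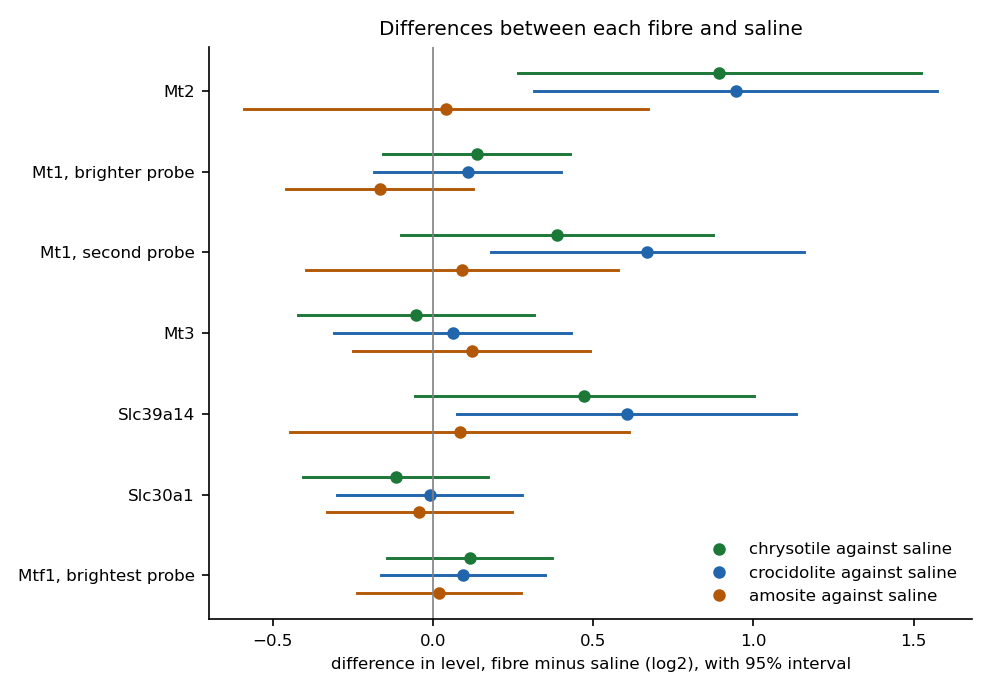
Difference of each fibre from saline for the 6 genes and the second Mt1 probe (log2, points with 95% intervals from limma, not adjusted for the number of genes). The intervals of Mt2 with chrysotile (0.26 to 1.52) and crocidolite (0.31 to 1.57), of Slc39a14 with crocidolite and of the second Mt1 probe with crocidolite lie above 0, and all 7 amosite intervals cross it.

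As a group, 4 of the 6 genes had positive differences with chrysotile, 5 with crocidolite and 4 with amosite. Their median differences were 0.13, 0.10 and 0.03, where the median of all genes was -0.01, -0.02 and -0.02. With chrysotile, both arrays lay above both saline arrays for 4 of the 6 genes (14.2% of all genes), with crocidolite for 3 (14.6%) and with amosite for 1 (8.20%). Mt1 with chrysotile is among them only by the second decimal (9.02 against 9.01). Mtf1 is counted with every fibre on its brightest probe. Its next probe overlapped saline with chrysotile and crocidolite and lay below it with amosite. Both arrays lay below for 0, 0 and 1 gene (15.3%, 19.9% and 12.9% of all genes). Differences of 1.5-fold or more above saline were measured for Mt2 with chrysotile (4.21% of all genes) and for Mt2 and Slc39a14 with crocidolite (3.66%), and for 0 of the 6 with amosite (2.63%). The 3 comparisons share the saline arrays, so their likeness carries that in common. The 6 genes were chosen with earlier results of these data known. Their medians and counts therefore describe the genes listed and are not a test of the group.

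The lists of zinc transporters, which include Slc30a1 and Slc39a14 themselves, give the setting for these genes. Zinc exporters move zinc out of the cytosol, to the outside or into organelles, and 8 of 11 were measured, since Slc30a3, Slc30a8 and Slc30a10 did not pass the filter. None of the 8 passed the test against saline with any fibre, and 0 reached 2-fold in either direction. Of all genes, 1.18% were 2-fold or more higher and 0.651% lower with chrysotile, 1.08% and 1.05% with crocidolite and 0.690% and 0.416% with amosite. For the exporters the median difference was 0.05 with chrysotile, 0.14 with crocidolite and 0.08 with amosite. Slc30a7, which loads zinc into the secretory pathway, was at -0.96 and -0.92 with saline and between -0.66 and -0.70 on the chrysotile and crocidolite arrays, a difference of 0.26 ± 0.11 (SE) with both, and 0.16 with amosite. Slc30a6, its relative in the Golgi, stood 0.21 ± 0.11 above saline with chrysotile. Slc30a9 had larger differences (0.79 ± 0.42 with crocidolite and 0.75 ± 0.42 with amosite), and these rested on 1 control array: its levels were 0.82 and 2.23 with saline and between 2.18 and 2.37 on the 6 fibre arrays.

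Zinc importers bring zinc into the cytosol, and 12 of 14 were measured, without Slc39a5 and Slc39a12. Again 0 passed the test and 0 reached 2-fold with any fibre, and the medians were -0.03, -0.08 and -0.02 for chrysotile, crocidolite and amosite. With chrysotile and crocidolite the smallest unadjusted p in this list belonged to Slc39a14. Slc39a6 stood 0.23 ± 0.12 above saline with chrysotile. Slc39a1, the main importer at the surface of many cells, was at 5.32 and 5.26 with saline and 5.66 and 5.58 with crocidolite, a difference of 0.33 ± 0.13 (limma adjusted p = 0.686). Other importers were lower with crocidolite, among them Slc39a4 at -0.56 and Slc39a9 at -0.44, and 5 of the 12 had positive differences. With amosite the leading values were 0.22 ± 0.19 for Slc39a8, the closest relative of Slc39a14, and -0.10 ± 0.12 for Slc39a7.

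**Figure D3:**
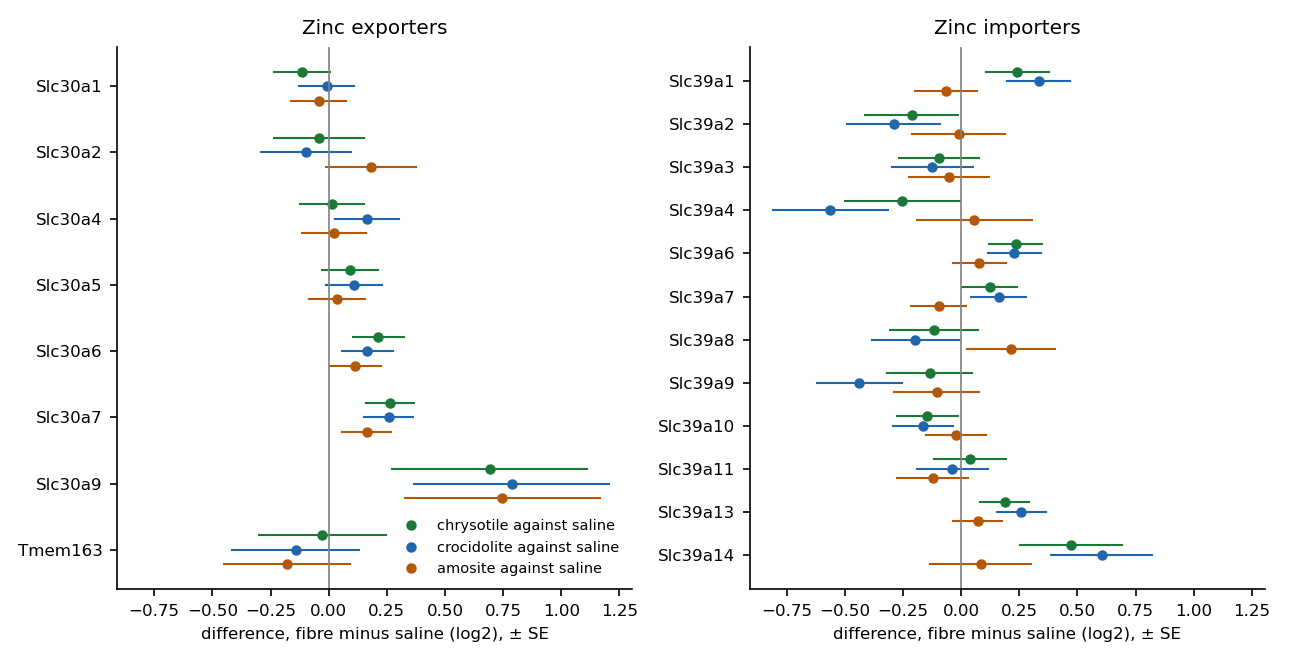
Difference of each fibre from saline for the 8 measured zinc exporters (left) and the 12 measured zinc importers (right), in log2 units with standard errors from limma. Most points lie within 0.25 of 0. With crocidolite, Slc39a14 is at 0.60, Slc39a4 at -0.56 and Slc39a9 at -0.44. The 3 values of Slc30a9 near 0.75 share a saline group whose arrays read 0.82 and 2.23.

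Mt4, the remaining metallothionein of the cluster, known from stratified epithelia, had differences of -0.01, -0.11 and -0.16 (SE 0.19 each). Of 13 copper-handling genes, chosen because metallothioneins also bind copper, 0 passed the test and the medians were -0.02, -0.04 and -0.01. Steap4, a metalloreductase of fat cells, was the exception in size within that list, 1.32 ± 0.52 above saline with chrysotile (2.50-fold) and 1.68 ± 0.52 with crocidolite (3.20-fold, limma adjusted p = 0.615), and 0.08 with amosite. Its levels were -2.42 and -2.61 with saline, -2.06 and -0.32 with chrysotile, -0.90 and -0.76 with crocidolite and -2.65 and -2.22 with amosite. The other copper genes named by the rule were Cp, the ferroxidase ceruloplasmin (0.49 ± 0.27 with chrysotile), Atp7b, a copper exporter (-0.47 ± 0.24 with crocidolite), and with amosite Sco1 (-0.37 ± 0.25), a copper chaperone of cytochrome oxidase, and Sod1 (0.29 ± 0.23), the copper and zinc superoxide dismutase.

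Metallothionein genes also answer to glucocorticoids, cytokines and oxidative stress, and the genes known for each were set beside them. Of 12 glucocorticoid-induced genes 0 passed the test, and the medians were -0.07, -0.08 and -0.03 for chrysotile, crocidolite and amosite. Its leading genes with chrysotile and crocidolite, Lcn2 (2.41 ± 0.63 and 2.52 ± 0.63) and Cebpd (0.71 ± 0.24 and 0.99 ± 0.24), stand in the cytokine list too, and with amosite Per1 was at -0.17 and Dusp1 at 0.19. Of 11 measured NRF2 targets, the genes of the oxidative stress response, 0 passed, with medians of 0.08, 0.10 and 0.10. In size, 1 of the 11, Hmox1, stood 2-fold or more above saline with chrysotile (1.32) and crocidolite (1.58), beside 1.18% and 1.08% of all genes. Its arrays are given under Other observations. Gclm, a subunit of the enzyme of glutathione synthesis, stood 0.28 ± 0.13 above saline with chrysotile and 0.37 ± 0.13 with crocidolite, Nqo1 0.23 with chrysotile, Srxn1 0.20 with crocidolite and 0.14 with amosite, and Abcc1 0.15 with amosite.

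The 14 genes of interleukin-6 and STAT3 signalling had the largest median of these lists with chrysotile and crocidolite, and 0 of them passed the test with any fibre. All 14 were above saline in the means with chrysotile (median 0.88) and crocidolite (0.99), and 10 with amosite (median 0.07). Both fibre arrays lay above both saline arrays for 8 of 14 with chrysotile, 11 with crocidolite and 0 with amosite, beside the 14.2%, 14.6% and 8.20% of all genes. This list was chosen with earlier results of these data known. Its medians and counts therefore describe the genes listed and are not a test of the pathway. Saa3, an acute phase protein of fat cells, stood 4.13 ± 1.01 above saline with chrysotile, 4.44 ± 1.01 with crocidolite and 0.71 with amosite. Timp1, a protease inhibitor, stood 1.07 ± 0.28 higher with chrysotile, Osmr, the oncostatin M receptor, 1.99 ± 0.42 higher with crocidolite (limma adjusted p = 0.503), and Junb was at -0.28 with amosite. On chrysotile replicate 1 and replicate 2 Osmr read 2.95 and 4.34, Saa3 -0.97 and 2.38, Slc39a14 0.83 and 1.46 and Mt2 6.80 and 7.26. Replicate 2 was the higher of the pair for each. These genes were picked, and the share of all genes higher on chrysotile replicate 2 is not given here. With crocidolite, replicate 2 was the lower of the pair for Mt2 (7.36 and 6.81) and Slc39a14 (1.37 and 1.18). The part of cytokine signalling in the levels of Mt2 and Slc39a14 was not tested.

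**Figure D4:**
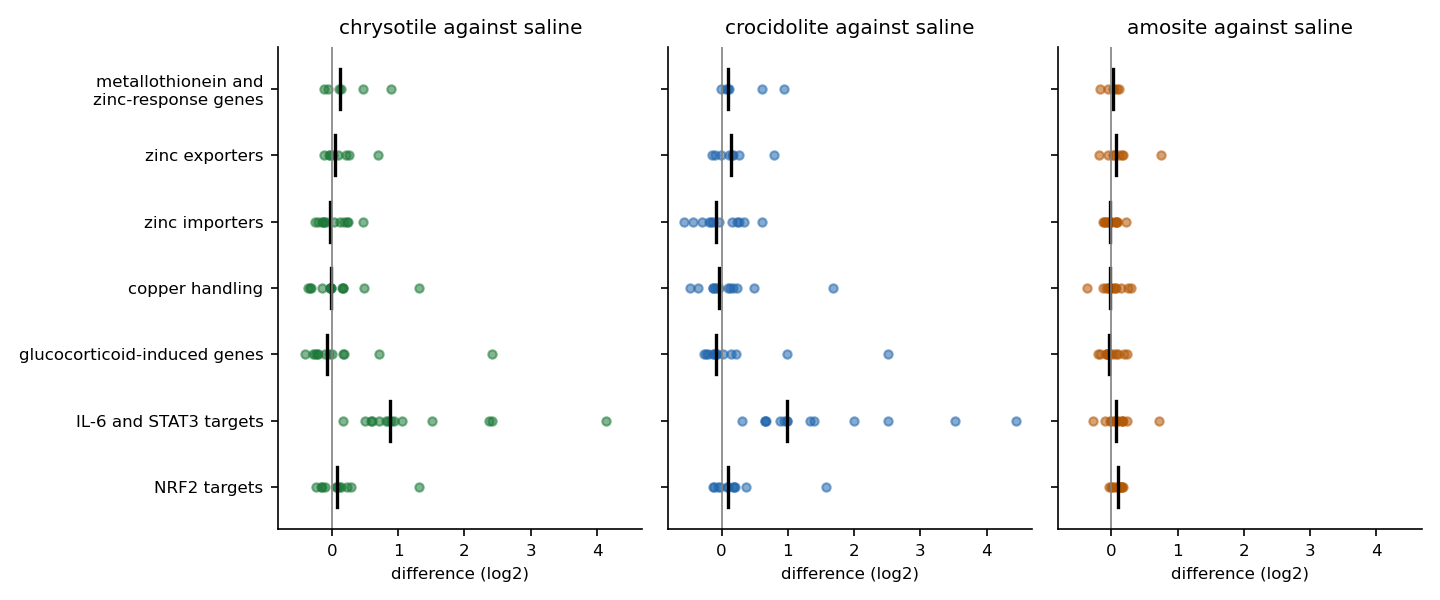
Difference of each fibre from saline (log2, 1 point per gene, black lines are medians) for the 6 genes and for the lists of zinc exporters, zinc importers, copper handling, glucocorticoid-induced, interleukin-6 and STAT3, and NRF2 genes. The interleukin-6 and STAT3 list has medians of 0.88 and 0.99 with chrysotile and crocidolite and 0.07 with amosite, and the medians of the other lists lie between -0.08 and 0.14.

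The genes with profiles nearest to Mt2 and Slc39a14 were found over the 8 arrays among 13914 named genes well above background on all of them, by the root mean square (RMS) difference of levels centred on each gene's own mean. The 3 nearest to Mt2 were Isg20, an interferon-induced exonuclease (0.0743), Lman1l (0.0875) and Cyp7b1, an oxysterol hydroxylase (0.138). Isg20 stood 0.82 above saline with chrysotile, 0.96 with crocidolite and 0.01 with amosite, beside 0.89, 0.94 and 0.04 for Mt2. The 3 nearest to Slc39a14 were Xdh, xanthine dehydrogenase (0.0757), Tgfbr2, a receptor of TGF-beta (0.0883), and Rbpms (0.0888). Xdh stood 0.53, 0.55 and 0.02 above saline with the 3 fibres, beside 0.47, 0.60 and 0.08 for Slc39a14. The other 4 genes spanned less than 0.5 over the arrays and were not matched.

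**Figure D5:**
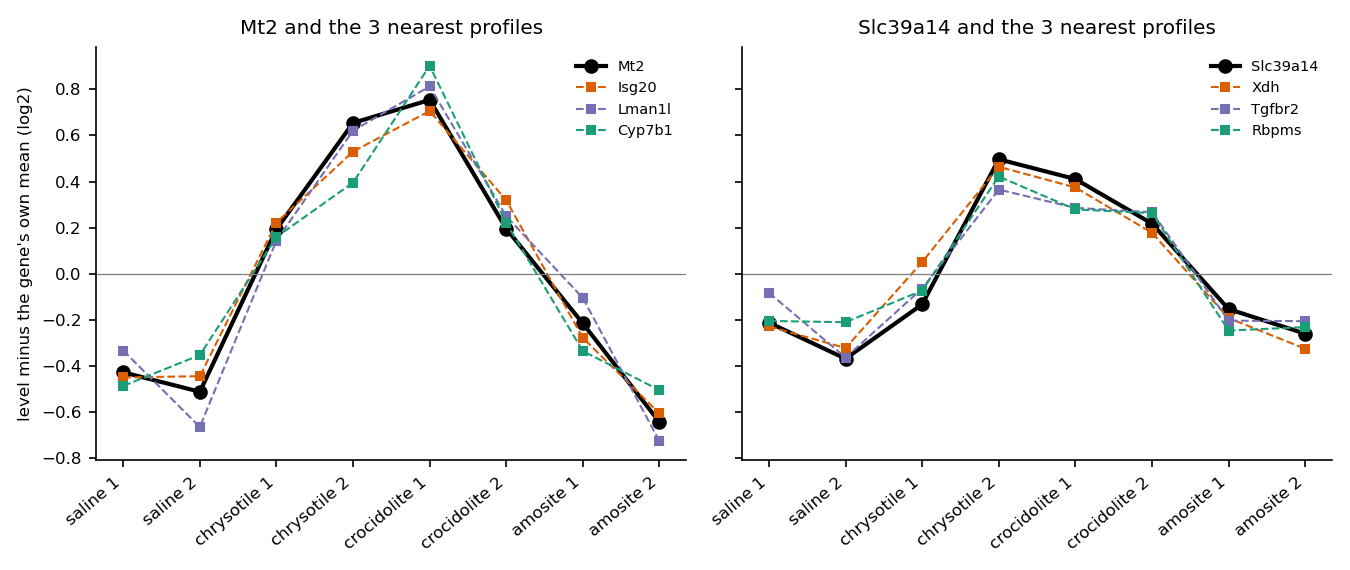
Levels of Mt2 (left) and Slc39a14 (right), each with its 3 nearest genes, on the 8 arrays after subtraction of each gene's own mean (log2, lines join arrays only to guide the eye). The profiles are higher on the chrysotile and crocidolite arrays than on the saline and amosite arrays, and the nearest genes were chosen for that likeness.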

How the data were processed

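Total RNA of 8 samples was labelled with Cy3 and hybridised to 1-colour Agilent arrays, 2 per group. Per the file headers the arrays were read with Feature Extraction 10.7.1.1 (10.7 per the submitters' processing notes), on 1 slide, with probe positions on mm9. The deposited values are linear processed intensity, background-subtracted by the scanner software per the file headers, and the value table the authors deposited held the same intensity (largest difference 0). Whether the duplicates were separate cultures is not in the labels, so the spread behind each p-value may be only technical.

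Repeat spots of a probe were averaged without control or outlier-flagged spots, and log2 of the deposited intensity was centred on each array's 75th percentile. Probes well above background on both arrays of at least 1 group were kept (33044 probes), and the brightest probe stood for a gene (23054 genes). All comparisons came from 1 limma fit over the 8 arrays (lmFit, eBayes, 4 residual degrees of freedom), two-sided, with Benjamini-Hochberg adjustment, in R 4.3.3 with limma 3.58.1 and data.table (version 1.17.8). The code was tested on simulated data.

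Same-numbered arrays share a slide column and deviated together (correlations of 0.25 to 0.45 over 23054 genes in the 6 pairs of groups), so a fit with the replicate number as a block was also made. The slide row held the group, and row and group cannot be told apart. All 6 genes are named, with the 2 smallest p of each list per fibre and the 3 nearest profiles. The 6 genes and the lists were chosen with earlier results of these data known. Background correction, scaling, filter, probe choice, prior, block, arrays in the fit and single arrays left out were varied.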

Additional observations from a re-analysis of the deposited data

Results flagged for a closer look

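In 3 results, from 2 pairs of fibres, both arrays of one fibre lay on one side of the saline mean and both arrays of the other on the opposite side. This was so for 2 of the 8 probes of the 6 genes with chrysotile and amosite, 1 of 8 with crocidolite and amosite and 0 of 8 with chrysotile and crocidolite, and for 7.05%, 8.44% and 4.32% of all 33044 probes. On the brighter Mt1 probe the chrysotile arrays were 0.10 and 0.17 above the saline mean and the amosite arrays 0.15 and 0.18 below it, a difference of 0.30 (limma adjusted p = 1.0). The crocidolite arrays were 0.18 and 0.04 above it, a difference from amosite of 0.27 (adjusted p = 0.973). The second Mt1 probe did not show amosite below saline, at 0.09. For Mt3 the chrysotile arrays were 0.09 and 0.01 below the saline mean and the amosite arrays 0.08 and 0.16 above it, a difference of -0.17 (adjusted p = 1.0). The spread of the saline arrays themselves (8.83 to 9.01 on the brighter Mt1 probe, -0.15 to 0.11 for Mt3) is narrower than the differences of 0.30 and 0.27 for Mt1. For Mt3 it is wider than the difference of -0.17.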

How the results depend on the processing

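None of the 6 genes passed the adjusted p of 0.05 in any comparison under any setting run. Mt2 kept its direction with chrysotile (0.66 to 1.12) and crocidolite (0.67 to 1.22, smallest adjusted p 0.181) and so did Slc39a14 (0.16 to 0.79 and 0.50 to 0.79). With the replicate block the number of calls over all genes stayed at 0 in all 7 comparisons, and it changed no call of the 6 genes. Centring on the median moved the median of all genes for crocidolite against saline to 0.16. The limits are 2 arrays per group, 1 slide (so no block by slide was run) and 1 or few probes per gene.

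Signs turned only for small differences, and the cause was not tested. With the mean over the probes of a gene, Mtf1 became -0.045 (chrysotile), -0.054 (crocidolite), -0.22 (amosite) and -0.11 (mean of the 3 fibres), and Mt1 in chrysotile against crocidolite -0.13. With the other probe, a setting added after seeing the data, Mtf1 became -0.21, -0.20, -0.46, -0.0025 (chrysotile against crocidolite) and -0.29 (mean), and Mt1 0.090 (amosite) and -0.28 (chrysotile against crocidolite). With normexp, Mtf1 with amosite became -0.043, and Slc30a1 0.0056 (crocidolite) and 0.00055 (amosite). With median centring, Slc30a1 became 0.17 (crocidolite), 0.017 (amosite) and 0.040 (mean), Mtf1 and Mt1 in chrysotile against crocidolite -0.12 and -0.11, and Mt3 in crocidolite against amosite 0.064. With quantile normalization, Mt1 in chrysotile against crocidolite became -0.072.

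Leaving out 1 array at a time, these ranges crossed 0. Against saline, Mt2 with amosite ran from -0.17 to 0.25, Mt3 from -0.18 to 0.076 with chrysotile, -0.084 to 0.21 with crocidolite, -0.0075 to 0.25 with amosite and -0.085 to 0.17 for the mean, Slc30a1 from -0.10 to 0.082 with crocidolite, -0.13 to 0.048 with amosite and -0.15 to 0.035 for the mean, and Mt1 from -0.064 to 0.12 for the mean. In chrysotile against crocidolite, Mt1 ran from -0.039 to 0.096, Mt2 from -0.33 to 0.23, Mt3 from -0.26 to 0.032, Mtf1 from -0.036 to 0.077 and Slc39a14 from -0.45 to 0.18. In crocidolite against amosite, Mt3 ran from -0.21 to 0.088 and Slc30a1 from -0.018 to 0.085.

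Over all genes, limma called 0 in every comparison. With quantile normalization it called 3 with chrysotile, 2 with crocidolite, 2 with amosite and 2 for the mean of the 3 fibres, and with median centring 2, 1, 2 and 2. With the mean over probes it called 1 for the mean of the fibres, and with a replicate block, trended and robust prior (added after seeing the data) 6 with chrysotile and 1 with crocidolite. Leaving out 1 array gave 0 to 67 calls with chrysotile, 0 to 51 with crocidolite, 0 to 58 with amosite, 0 to 187 for the mean, and 0 to 1 in chrysotile against crocidolite and in chrysotile against amosite, with the highest counts against saline reached without saline replicate 2.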

Other observations

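Hmox1, the heme oxygenase of the NRF2 list, was chosen after its values were seen, because its arrays sorted by replicate number. On replicate 1 its level was 0.45 with saline, 1.56 with chrysotile, 1.90 with crocidolite and 0.55 with amosite, and on replicate 2 it was 2.63, 4.15, 4.34 and 2.85. Within each number, chrysotile and crocidolite lay above saline and amosite. Without the replicate block its difference from saline was 1.32 ± 1.35 (SE) with chrysotile and 1.58 ± 1.35 with crocidolite (limma adjusted p = 0.943 and 0.835). With the replicate block the differences had an SE of 0.13 and adjusted p of 0.214 and 0.283. Mt2 and Slc39a14 showed no such order by number: replicate 2 was higher than replicate 1 with chrysotile and lower with saline, crocidolite and amosite for both genes.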
